A study of Mus musculus with 10 samples.

Results

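The 10 genes described here make, conjugate, move and regulate bile acids in the liver. They were taken by name from the deposited table, which holds 15126 genes, and each has a single Ensembl identifier there. All 10 passed a filter on low levels, a mean of 1 CPM or more over the livers used, as did 11041 genes in all. *Cyp7a1* and *Cyp8b1* belong to the classical pathway of synthesis, *Cyp27a1* and *Cyp7b1* to the alternative pathway, *Slc27a5* and *Baat* to conjugation, *Slc10a1* and *Abcb11* to transport, and *Nr1h4* and *Nr0b2* to regulation.

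RNA-seq was performed on livers of male *db/db* mice, which lack a functional leptin receptor and are obese and diabetic. The *db/db* AAV8-Control group (5 livers) is described, whose mice were 10 weeks old and had received a serotype 8 adeno-associated virus (AAV8) encoding eGFP 5 weeks earlier. Every liver thus carried the *db/db* genotype and a vector, so no lean and no vector-free liver stands beside these values. The promoter that drove the vector and the hour at which livers were taken are not given in the sources used here. Some label fields describe cultured primary hepatocytes and adenovirus, while the source, the tissue and the study's text name liver, which is followed here. The labels do not name the animal behind each library, so a spread between livers is the spread between these libraries.

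The 5 libraries held 19499795 to 35498596 counted reads. A level is given as CPM, the reads of a gene scaled to all counted reads of its library. Summed levels of 10 hepatocyte markers were 102147 to 136109 CPM, and those of 10 bile duct (cholangiocyte) markers were 51.7 to 75.6 CPM. Of the latter, *Cftr* and *Sctr* had means of 0.0611 and 0.0226 CPM and were at 0 in some livers. In whole liver, fewer cells of a type and less RNA per cell cannot be told apart. Together the 10 bile acid genes took 3735 to 4326 CPM of a library.

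Bile acids are made from cholesterol in hepatocytes. The classical pathway starts with *Cyp7a1*, while the alternative pathway starts with side chain oxidation by *Cyp27a1*. Bile acids are joined, as CoA esters, to taurine or glycine and pumped into bile, and most return from the gut to be taken up again. A CoA ligase forms such esters from free bile acids. Bile acids bind the nuclear receptor FXR (*Nr1h4*), which induces the repressor SHP (*Nr0b2*) and the export pump *Abcb11*, and SHP acts with the receptors LRH-1 and HNF4A to restrain *Cyp7a1* and *Cyp8b1*.

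The sequences before 3 of the genes show where such receptors could find their short recognition letters. RefSeq starts on GRCm38.p6 were matched for 6 of the 10 genes, and *Cyp7a1*, *Cyp7b1*, *Baat* and *Slc27a5* were not matched. The 250 bases before the start are printed for *Nr0b2* (chr4:133553126-133553375, forward strand), *Abcb11* (chr2:69342617-69342866, reverse strand) and *Cyp8b1* (chr9:121916306-121916555, reverse strand). They stand here as the repressor, an FXR target and a target of the repressor. Capitals mark TCAAGG, the core of LRH-1 sites, TGACCT, a nuclear receptor hexamer that reads AGGTCA on the other strand, and CAAAGTC, the start of many HNF4A sites.
Nr0b2: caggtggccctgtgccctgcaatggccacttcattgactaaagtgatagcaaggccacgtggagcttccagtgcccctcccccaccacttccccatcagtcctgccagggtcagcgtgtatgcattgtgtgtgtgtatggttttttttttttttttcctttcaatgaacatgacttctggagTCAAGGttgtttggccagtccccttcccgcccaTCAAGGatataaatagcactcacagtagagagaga
Abcb11: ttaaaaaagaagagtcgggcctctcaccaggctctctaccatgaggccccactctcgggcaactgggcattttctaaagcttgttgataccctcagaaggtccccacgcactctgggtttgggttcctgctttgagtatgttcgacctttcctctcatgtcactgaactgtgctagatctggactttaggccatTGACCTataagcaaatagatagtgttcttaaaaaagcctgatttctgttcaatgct
Cyp8b1: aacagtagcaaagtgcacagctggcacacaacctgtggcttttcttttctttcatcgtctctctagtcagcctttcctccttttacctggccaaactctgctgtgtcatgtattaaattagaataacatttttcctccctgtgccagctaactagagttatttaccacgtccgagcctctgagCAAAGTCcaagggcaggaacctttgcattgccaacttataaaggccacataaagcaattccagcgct
*Nr0b2* holds TCAAGG at -68 and again at -35, counted from the start site, *Abcb11* holds TGACCT at -56, and *Cyp8b1* holds CAAAGTC at -67. *Nr1h4* holds TGACCT at -214, *Slc10a1* holds CAAAGTC at -173 in 1 of its 2 windows and TGACCT on the other strand at -87 in the other, and *Cyp27a1* holds none of the 3 motifs. The *Nr1h4* window and that second *Slc10a1* window lie inside the annotated gene, before an internal start, and not before the whole gene. Over the 7 windows of the 6 matched genes, TCAAGG is in 1, TGACCT in 3 and CAAAGTC in 2, and the printed windows were chosen among those with a match. Both strands of all 32851 RefSeq windows of this length were searched. TCAAGG is in 12.5% of them, TGACCT in 14.0% and CAAAGTC in 3.84%, and TCAAGG and AGGTCA can overlap by 3 letters. A match is a description of letters and not of binding.

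The classical pathway genes varied widely from liver to liver. *Cyp7a1*, the rate-limiting enzyme of this pathway (ENSMUSG00000028240), spans 6265612 to 6275633 of chromosome 4 of GRCm38, reverse strand. In AAV8-Control replicates 1 to 5 it was at 82.5, 103, 54.9, 68.2 and 102 CPM. Replicates 2 and 5 were the highest and close to each other, and replicate 3 was the lowest. The mean was 82.1 ± 21.0 CPM (SD, n = 5 livers), and the highest liver held 1.87 times the level of the lowest. *Cyp8b1*, the sterol hydroxylase that steers synthesis towards cholic acid (ENSMUSG00000050445), has a single exon at 121914356 to 121916305 of chromosome 9, reverse strand. It was at 490, 543, 327, 201 and 377 CPM in replicate order. Replicate 2 was again the highest liver, but the lowest was replicate 4, where *Cyp7a1* was above its own lowest value. The mean was 388 ± 135 CPM (SD, n = 5 livers), with a 2.70-fold range.

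The alternative pathway genes lay in narrower ranges. *Cyp27a1*, the mitochondrial sterol hydroxylase that opens this pathway (ENSMUSG00000026170), spans 74713574 to 74737892 of chromosome 1, forward strand. It was at 353, 356, 318, 338 and 385 CPM, a mean of 350 ± 24.7 CPM (SD, n = 5 livers). *Cyp7b1*, the oxysterol hydroxylase of this pathway (ENSMUSG00000039519), spans 18071950 to 18243338 of chromosome 3, reverse strand. It was at 8.72, 9.73, 7.83, 9.84 and 10.7 CPM, a mean of 9.37 ± 1.12 CPM (SD, n = 5 livers). For both genes replicate 3 was the lowest liver and replicate 5 the highest. *Cyp7b1* also had the fewest reads of the 10 genes, 170 to 278 a library.

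Of the conjugation genes, *Slc27a5* encodes the bile acid CoA ligase and *Baat* the transferase that joins bile acids to taurine or glycine. *Slc27a5* (ENSMUSG00000030382) spans 12988346 to 12998192 of chromosome 7, reverse strand. It was at 1144, 1145, 1054, 1191 and 1157 CPM, a mean of 1138 ± 50.6 CPM (SD, n = 5 livers). Replicate 3 stood below the other livers, which were close together. *Baat* (ENSMUSG00000039653) spans 49489422 to 49506557 of chromosome 4, reverse strand. It was at 278, 299, 265, 336 and 291 CPM, a mean of 294 ± 26.9 CPM (SD, n = 5 livers). Replicate 4 was the highest liver and replicate 3 the lowest for both conjugation genes.

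The transporters were abundant in every liver. *Slc10a1* (NTCP), the sodium-coupled carrier that takes bile acids up from blood (ENSMUSG00000021135), spans 80953183 to 80968705 of chromosome 12, reverse strand. It was at 901, 1212, 1123, 1069 and 1040 CPM, a mean of 1069 ± 114 CPM (SD, n = 5 livers). Replicate 1 was the lowest and replicate 2 the highest. *Abcb11* (BSEP), the pump that exports bile acids into the canaliculus (ENSMUSG00000027048), spans 69238282 to 69342616 of chromosome 2, reverse strand. It was at 461, 502, 448, 529 and 553 CPM, a mean of 498 ± 44.5 CPM (SD, n = 5 livers). Its lowest liver was replicate 3 and its highest replicate 5, so uptake and export genes did not share their extremes. Of its exon bases, 155 (3.01%) are shared with the opposite-strand annotations *Gm13614* and *Gm13613*. The study's methods state that unambiguous reads were counted, so reads on shared bases may be left out of its value.

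The regulators were unlike each other in spread. *Nr1h4*, which encodes FXR (ENSMUSG00000047638), spans 89454234 to 89533585 of chromosome 10, reverse strand. It was at 117, 125, 119, 131 and 125 CPM, a mean of 124 ± 5.64 CPM (SD, n = 5 livers), and its range was 1.12-fold. *Nr0b2* (ENSMUSG00000037583) spans 133553376 to 133556536 of chromosome 4, forward strand, next to the window printed above with its pair of TCAAGG runs. It was at 31.3, 30.5, 18.8, 48.0 and 30.1 CPM, a mean of 31.7 ± 10.5 CPM (SD, n = 5 livers). Replicates 1, 2 and 5 were alike, while replicate 3 was far below them and replicate 4 far above, a 2.56-fold range. The liver with the most *Nr0b2* was the one with the least *Cyp8b1*, and the liver with the least *Nr0b2* was the one with the least *Cyp7a1*. With 5 livers no correlation is given.

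**Figure D1:**
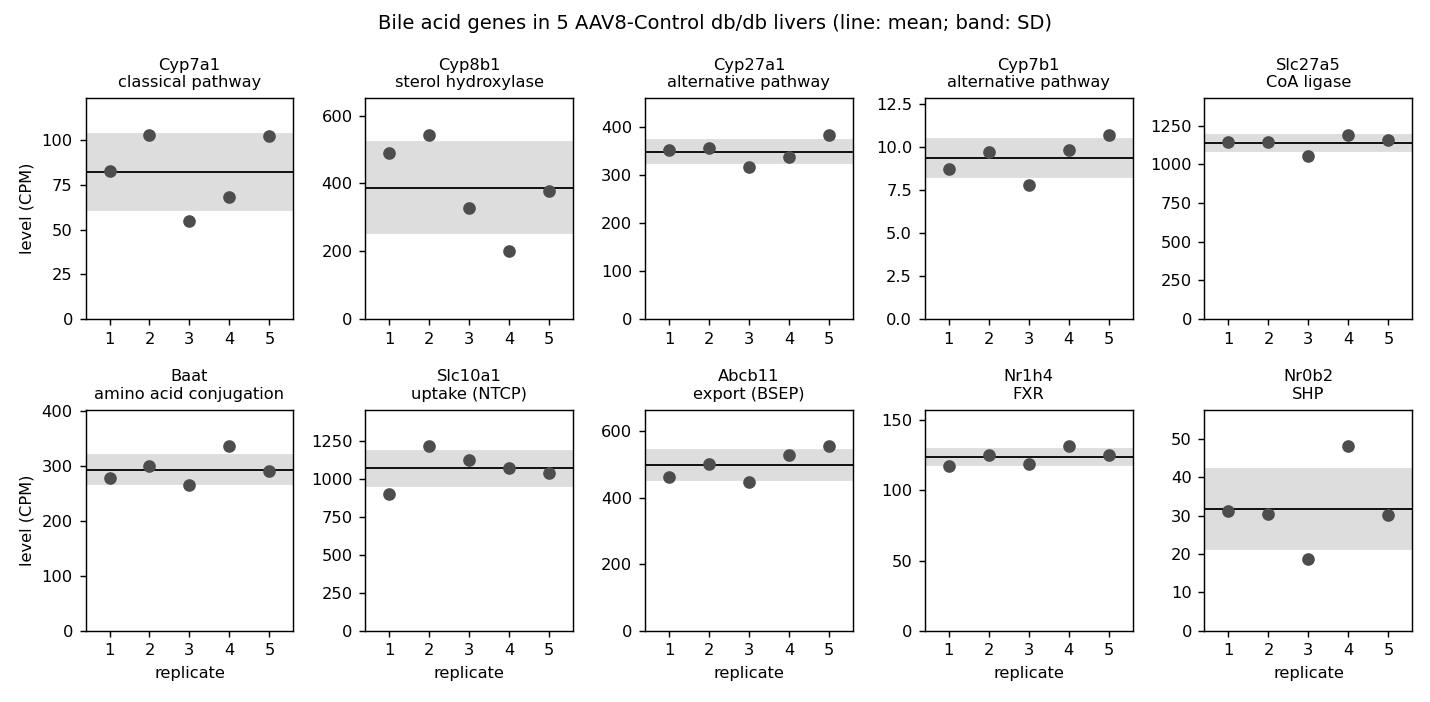
Level in CPM (vertical axis, from 0) of each of the 10 genes in AAV8-Control replicates 1 to 5, 1 panel a gene, with the mean as a line and 1 SD on either side as a grey band. *Cyp8b1* runs from 201 to 543 CPM and *Nr0b2* from 18.8 to 48.0 CPM, while *Nr1h4* stays between 117 and 131 CPM.

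How much livers differed was compared with all genes that passed the filter. The SD of log2(CPM + 1) was 0.564 for *Cyp8b1*, 0.464 for *Nr0b2* and 0.384 for *Cyp7a1*, while its median over all 11041 genes was 0.137. These spreads exceeded those of 98.9%, 97.9% and 96.0% of the genes. Without replicate 4 the SDs were 0.335 for *Cyp8b1*, 0.339 for *Nr0b2* and 0.419 for *Cyp7a1*, so the place of *Cyp8b1* as the widest depends on that liver. Without replicate 3 they were 0.642 for *Cyp8b1*, 0.318 for *Nr0b2* and 0.280 for *Cyp7a1*, the lowest of the left-out values for the last 2 genes. Genes of like level were those with a mean within 1.5 times that of the gene. Against these only, the spread over all 5 livers exceeded 97.6% of 252 genes for *Cyp8b1*. It exceeded 98.4% of 2170 genes for *Nr0b2* and 97.4% of 1151 genes for *Cyp7a1*. The repressor and both classical pathway enzymes were thus among the most variable transcripts of these livers on either reading with all 5 livers, as a description without a test.

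The other genes had narrower spreads. *Cyp7b1* (SD of log2 levels 0.158), *Slc10a1* (0.158), *Abcb11* (0.129) and *Baat* (0.129) exceeded 60.1%, 59.9%, 45.5% and 45.4% of the genes. *Cyp27a1* (0.102) exceeded 29.5%. *Slc27a5* (0.0654) and *Nr1h4* (0.0652) exceeded 9.32% and 9.24% on the CPM scale. With size factors these shares became 19.2% for *Slc27a5* and 32.0% for *Nr1h4*, whose SD of log2 levels was then 0.102. Leaving out 1 liver lowered the SD to 0.0972 for *Slc10a1* (replicate 1), 0.0769 for *Baat* (replicate 4) and 0.0271 for *Slc27a5* (replicate 3).

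Counting error was small beside these spreads for all but *Cyp7b1* and *Nr1h4*. For *Cyp7b1*, the SD among livers was 11.9% of the mean level, and counting reads alone would give 6.77%. For *Nr1h4* these were 4.57% and 1.85%. For *Cyp8b1* they were 34.9% and 1.07%, for *Nr0b2* 33.0% and 3.68%, and for *Cyp7a1* 25.6% and 2.32%. The counting values treat each read as independent and cover counting error only.

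**Figure D2:**
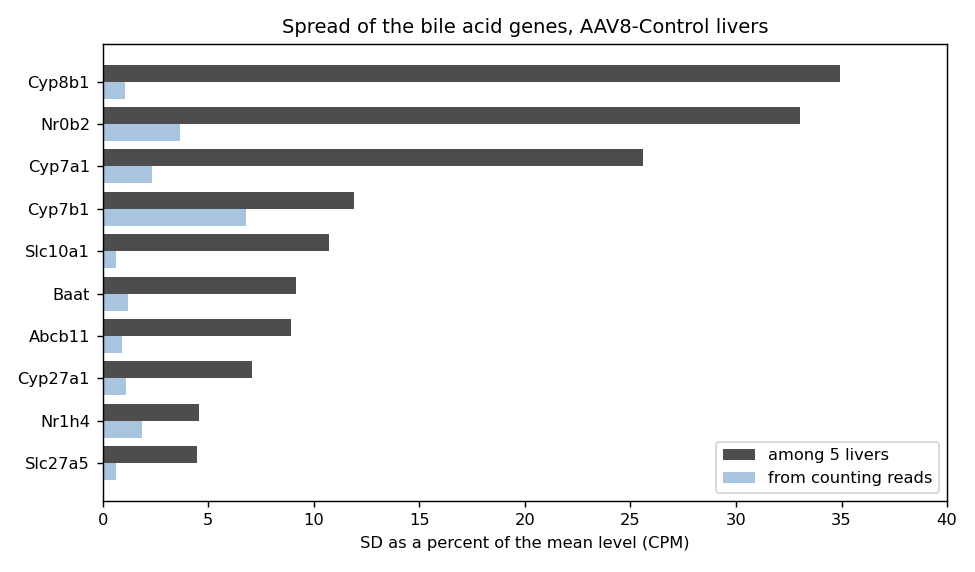
SD of each gene among the 5 AAV8-Control livers (dark bars) and the SD that counting reads alone would give (light bars), both as a percent of the mean CPM. *Cyp8b1* has the longest dark bar at 34.9% and *Slc27a5* the shortest at 4.45%, and the light bar is longest for *Cyp7b1* at 6.77%.

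No single liver was high or low for all 10 genes. Replicate 3, the most deeply sequenced, was the lowest liver for 7 of them, replicate 1 for 2 and replicate 4 for 1. The highest liver was replicate 4 for 4 genes and replicates 2 and 5 for 3 genes each. Over all 11041 genes, replicates 1 to 5 were the lowest liver for 12.1%, 18.9%, 22.0%, 31.7% and 15.4%, and the highest for 37.8%, 12.3%, 15.8%, 16.4% and 17.8%. Replicate 4 was thus most often the lowest and replicate 1 most often the highest over all genes, unlike in the 10 bile acid genes. Of 7 periportal markers, replicate 3 was the lowest for 6 and replicate 4 the highest for 3. Of 8 pericentral markers, replicates 3 and 5 were the lowest for 4 each and replicate 4 the highest for 5. Of 10 general hepatocyte markers, replicates 1 and 3 were the lowest for 3 each and replicate 4 the highest for 4. Replicates 3 and 4 were also the most unlike pair of libraries (chi-square per degree of freedom 132, against 17.6 to 72.1 for the other pairs). The part of these differences in the levels of the 10 genes was not tested. Size factors relative to CPM were 0.992 for replicate 3 and 0.970 to 1.05 over the 5 livers.

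Levels per kilobase of exon ordered the genes as follows. *Slc10a1* (486 ± 52.0 CPM per kb, SD, n = 5) and *Slc27a5* (467 ± 20.8 CPM per kb) stood highest, and their ranges overlapped, with *Slc10a1* above in only 2 livers. *Cyp8b1* (199 ± 69.4 CPM per kb), *Cyp27a1* (161 ± 11.4 CPM per kb) and *Baat* (151 ± 13.8 CPM per kb) came next. *Cyp8b1* overlapped with *Cyp27a1*, and *Cyp27a1* with *Baat*, the first of each pair being above in 4 of 5 livers. *Abcb11* (96.9 ± 8.65 CPM per kb) and *Nr1h4* (53.6 ± 2.45 CPM per kb) were separate from both neighbours. *Nr0b2* (28.0 ± 9.25 CPM per kb) overlapped in range with *Cyp7a1* (19.7 ± 5.04 CPM per kb), although it was above it within each of the 5 livers. *Cyp7b1* was lowest at 4.33 ± 0.516 CPM per kb.

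Against genes that passed the filter and have a known exon length, these levels mostly stood high. Of 11036 such genes, 99.1% had a lower mean per kilobase than *Slc10a1* and 99.1% a lower one than *Slc27a5*. The share was 98.0% for *Cyp8b1*, 97.6% for *Cyp27a1*, 97.5% for *Baat* and 96.2% for *Abcb11*. The regulators *Nr1h4* and *Nr0b2* exceeded 93.5% and 89.0% of genes, and *Cyp7a1* 85.5%. *Cyp7b1*, at 57.4%, was near the middle of the genes that passed the filter.

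**Figure D3:**
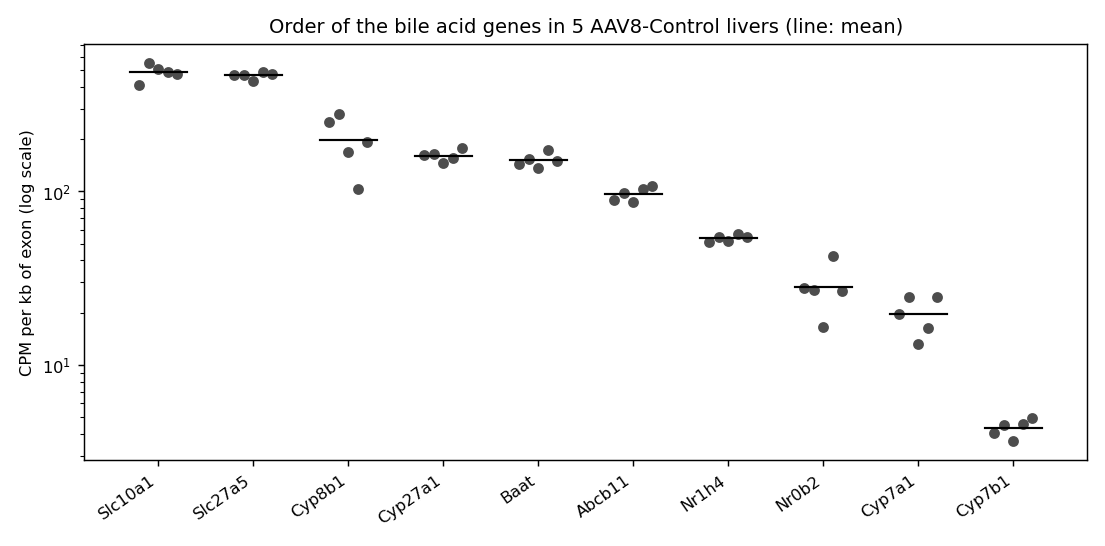
CPM per kilobase of exon (log axis) of the 10 genes in order of their means, with a point for each of the 5 AAV8-Control livers and the mean as a line. The order runs from *Slc10a1* at 486 to *Cyp7b1* at 4.33 CPM per kb, and *Cyp8b1* spans the widest range, 103 to 279 CPM per kb.

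Ratios of transcript levels within a liver do not depend on how libraries are scaled. *Cyp8b1* over *Cyp7a1*, the step towards cholic acid over the first step, was 5.94, 5.28, 5.96, 2.94 and 3.69 in CPM. Replicates 1, 2 and 3 stood near each other and replicates 4 and 5 below them. Its geometric mean was 4.59, and its log2 value was 2.20 ± 0.456 (SD, n = 5 livers). Per kilobase the geometric mean was 9.82, so each liver held several times more *Cyp8b1* than *Cyp7a1* transcript.

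The ratios of alternative to classical pathway enzymes varied less. *Cyp27a1* over *Cyp7a1* was 4.28, 3.46, 5.79, 4.95 and 3.76 (log2 value 2.13 ± 0.299, SD, n = 5 livers). *Cyp7b1* over *Cyp7a1* was 0.106, 0.0945, 0.143, 0.144 and 0.105 (log2 value -3.10 ± 0.280, SD, n = 5 livers). Both were highest in replicates 3 and 4, where *Cyp7a1* was lowest. *Cyp7b1* over *Cyp27a1*, the alternative pathway enzymes against each other, stayed within 0.0247 to 0.0291 (log2 value -5.23 ± 0.108, SD, n = 5 livers), a 1.18-fold range.

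Regulation, transport and conjugation gave these ratios. *Nr0b2* over *Nr1h4*, the repressor over the receptor that induces it, ran from 0.158 in replicate 3 to 0.366 in replicate 4 (log2 value -2.02 ± 0.435, SD, n = 5 livers). *Abcb11* over *Slc10a1*, export over uptake, was 0.511, 0.414, 0.399, 0.494 and 0.532 (log2 value -1.10 ± 0.188, SD, n = 5 livers). *Baat* over *Slc27a5* was the steadiest of the 7 ratios, at 0.243 to 0.282 (log2 value -1.96 ± 0.0822, SD, n = 5 livers).

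**Figure D4:**
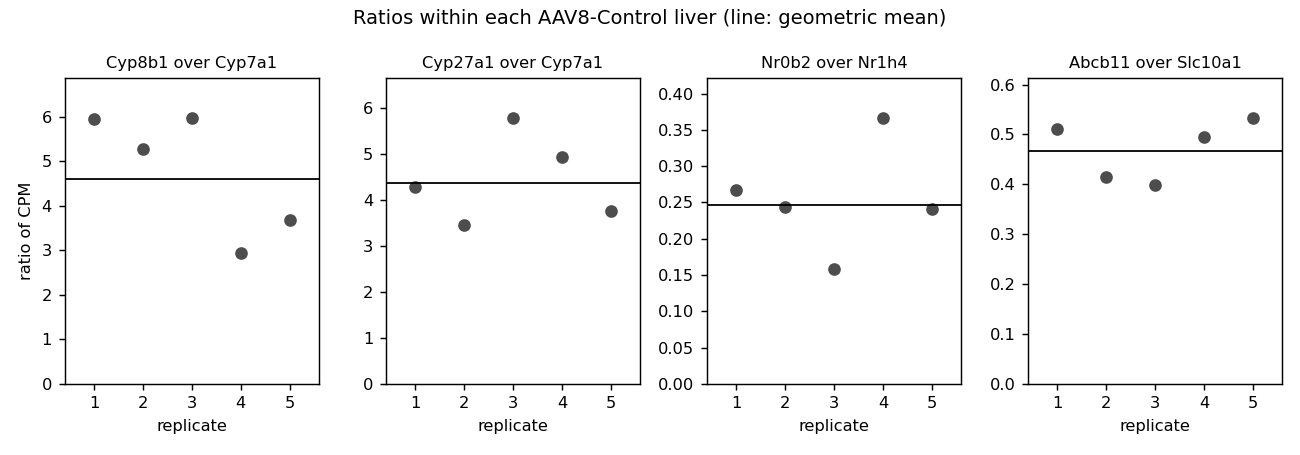
Ratio of CPM of 2 genes (vertical axes, from 0) in AAV8-Control replicates 1 to 5, with the geometric mean as a line. *Cyp8b1* over *Cyp7a1* runs from 2.94 to 5.96, *Nr0b2* over *Nr1h4* from 0.158 to 0.366, and *Abcb11* over *Slc10a1* from 0.399 to 0.532.

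Around the 10 genes, 20 further synthesis enzymes passed the filter, at 2.15 to 499 CPM per kb with a median of 62.3. The highest were *Scp2*, a carrier and thiolase of side chain shortening (499 CPM per kb), *Slc27a2*, an acyl-CoA synthetase (244 CPM per kb), and *Akr1c6*, an aldo-keto reductase (232 CPM per kb). *Cyp39a1*, an oxysterol hydroxylase, had the widest spread, at 24.6, 30.1, 28.3, 64.0 and 33.7 CPM. Replicate 4 was far above the other livers for it. The median SD of log2 levels over these enzymes was 0.114, and 8 of the 20 were above the median of all genes. *Ch25h* had a mean of 0.0893 CPM and was at 0 in some livers, and *Stard1* was not analysed here.

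Transporters of bile acids and bile lipids passed the filter for 17 of 18 genes, at 0.427 to 168 CPM per kb. *Slco1b2*, an organic anion carrier of the sinusoidal membrane, was the highest (168 CPM per kb), followed by the export pumps *Abcc2* (83.2 CPM per kb) and *Abcc3* (68.3 CPM per kb). All 3 were below *Slc10a1* at 486 CPM per kb. *Slc22a7*, an organic anion transporter, had the widest spread, at 5.79, 11.5, 4.28, 15.1 and 8.51 CPM. *Slc51a*, a subunit of the basolateral bile acid exporter, had a mean of 0.0232 CPM and was at 0 in some livers.

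Of the regulators, 23 passed the filter, with a median of 9.20 CPM per kb. *Hnf4a*, a hepatocyte receptor that drives *Cyp7a1* and *Cyp8b1* (128 CPM per kb), *Rxra*, the partner of FXR (71.2 CPM per kb), and *Nr1h3*, the oxysterol receptor LXR alpha (45.1 CPM per kb), stood highest. *Hnf4a* was at 735, 573, 608, 603 and 573 CPM and *Rxra* at 463, 382, 364, 361 and 375 CPM, so replicate 1 was above the other livers for both. *Nr5a2*, which encodes LRH-1, was at 6.37 CPM per kb and at 37.5 ± 3.55 CPM (SD, n = 5 livers). *Ppargc1a*, a fasting coactivator, had the widest spread, at 11.6, 18.8, 21.9, 19.0 and 13.4 CPM. *Vdr* and *Gpbar1*, receptors for bile acids among other ligands, had means of 0.0159 and 0.0571 CPM and were at 0 in some livers. *Fgf15* was not analysed here.

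Other FXR target genes were 10 in number after the filter. The highest were *Apoc2* (580 CPM per kb) and *Kng1* (483 CPM per kb), which encode plasma proteins, and *Fetub* (153 CPM per kb). *Pltp*, the phospholipid transfer protein, had an SD of log2 levels of 0.752, larger than that of 99.6% of genes, at 53.5, 72.5, 87.4, 21.8 and 56.1 CPM. Its lowest liver was replicate 4, where *Nr0b2* was highest and where *Kng1* was also highest, at 1668 CPM. *Apoc2* was highest in replicate 2 and *Fetub* in replicate 5.

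Clock genes, which set the daily rhythm of *Cyp7a1*, summed to 705 to 877 CPM over 18 genes. *Nr1d1* (42.7 CPM per kb), *Bhlhe40* (25.7 CPM per kb) and *Tef* (16.0 CPM per kb) were the highest of these. *Per1*, a core clock repressor, had the widest spread by the SD of log2(CPM + 1), at 47.4, 23.1, 43.5, 21.7 and 24.2 CPM, with replicates 1 and 3 high. *Bhlhe40* was at 163, 107, 141, 109 and 83.7 CPM, with the same livers high. Another clock gene, with a mean of 2.62 CPM, had a larger SD as a percent of its mean than *Per1*, 53.9% against 38.9%. The part of the clock genes in the levels of the 10 genes was not tested.

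Cholesterol synthesis and uptake genes, which supply the substrate, summed to 2642 to 3814 CPM over 19 genes, and 16 of them had a spread above the median of all genes. *Sc5d* (138 CPM per kb), *Hmgcs1* (126 CPM per kb) and *Insig1* (94.9 CPM per kb) were the highest of these. *Fdps*, an enzyme of isoprenoid synthesis, had the widest spread, at 72.4, 85.9, 105, 52.3 and 75.0 CPM, highest in replicate 3 and lowest in replicate 4. *Hmgcs1* was at 471, 631, 725, 457 and 608 CPM, with the same highest and lowest livers.

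Markers of liver zones and of other cells varied too. The 7 periportal markers summed to 5158 to 7846 CPM and the 8 pericentral markers to 7232 to 10109 CPM. Markers of macrophages summed to 134 to 270 CPM, those of sinusoidal endothelium to 138 to 278 CPM, and those of stellate cells and fibroblasts to 244 to 333 CPM. Lymphocyte markers summed to 0.845 to 3.56 CPM, with *Ms4a1* and *Ncr1* at 0 in some livers, and red cell markers to 262 to 327 CPM. Of the gut (ileum) markers, *Vil1* and *Cdh17* had means of 0.0763 and 0.0159 CPM and were at 0 in some livers, while *Slc10a2*, which is also among the bile duct markers, was at 5.18 ± 0.481 CPM (SD, n = 5 livers). Their part in the spread of the 10 genes was not tested.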

How the data were processed

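Poly-A selected RNA was sequenced as single reads of 50 bases. The authors aligned them with STAR 2.0.4b to the Ensembl release 76 assembly, GRCm38.p2 in the submitters' processing notes, and counted uniquely aligned reads per gene with featureCounts 1.4.5. The table they deposited holds CPM values, in 15236 lines for 15126 genes, and dividing by the CPM of 1 read gave whole reads for 100% of values (tolerance 0.05). The step from counts to CPM is not given in the sources used here.

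Levels, SDs and within-liver ratios were computed from CPM with Python 3.11.15 and pandas 2.3.3 over the 5 AAV8-Control livers. The comparison of groups in this study and some genes of the lists are not reported here, so no test between groups was run and no count model was used. A filter kept genes whose mean reached 1 CPM, and spread was taken on log2(CPM + 1). Levels per kilobase used the exon length of GENCODE M21 (GRCm38), matched by Ensembl identifier for 15119 genes. The counting SD is the square root of the reads, as CPM. The spread calculation was tested on simulated counts of 5000 genes for these livers, where 200 genes drawn with an SD of 0.6 had a median SD of 0.513 and the others, drawn with 0.1, had 0.109. No 2 libraries came near being duplicates (lowest chi-square per degree of freedom 17.6).

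The members and lists were chosen with earlier results of these data known. Named are the 10 genes and, in each list, the 3 highest per kilobase and the widest in spread, with *Nr5a2* and *Hnf4a*; this rule and the alternatives (pseudocount 0.1, size factors, no filter, each liver left out) were set after the data were seen.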

Additional observations from a re-analysis of the deposited data

Results flagged for a closer look

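Of 42 sets of 5 values examined, the levels of the 10 genes, of 25 named list genes and 7 ratios, 4 had 1 liver far from the others by Dixon's criterion for 5 samples (gap over range above 0.71), which chance gives for about 1 in 20 sets. That rate does not hold for the 6 genes named for the widest spread in their list, of which *Cyp39a1* is 1. None of the 10 bile acid genes and none of the ratios did. *Hnf4a* stood at 735 CPM in AAV8-Control replicate 1, where the other livers were at 573 to 608 CPM. *Rxra* stood at 463 CPM in the same liver, against 361 to 382 CPM in the others. Replicate 1 was also the highest liver for 37.8% of all 11041 genes, and the part of this in these values was not tested. *Cyp39a1* stood at 64.0 CPM in AAV8-Control replicate 4, against 24.6 to 33.7 CPM in the others. *Nr1d1* stood at 101 CPM in AAV8-Control replicate 3, against 133 to 143 CPM in the others.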

How the results depend on the processing

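All alternatives were chosen after the data were seen. Mean levels of the 10 genes moved by less than 1 SD between livers under size factors. So did these means and the log2 ratios with each liver left out. Leaving out 1 of 5 livers cannot move a mean by 1 SD, so that limit decides nothing. With each liver left out, the mean was 349 to 434 CPM for *Cyp8b1* and 77.0 to 89.0 CPM for *Cyp7a1*. The SD of log2 levels changed by more than 1.5 times on leaving out 1 liver for 4 genes, and fewer livers entered each of these values. For *Cyp8b1* the SD was 0.335 to 0.650, lowest without replicate 4. For *Slc10a1* it was 0.0972 to 0.182, lowest without replicate 1. For *Baat* it was 0.0769 to 0.148, lowest without replicate 4, and for *Slc27a5* 0.0271 to 0.0753, lowest without replicate 3. Size factors gave *Nr1h4* an SD of 0.102, larger than that of 32.0% of genes, and *Slc27a5* a spread larger than that of 19.2% of genes. Levels were divided by these factors, 1.05 for replicate 1, the lowest liver for *Nr1h4*, and 0.970 for replicate 4, the highest for both genes. Why the factors differ was not tested. Without a filter on low levels, these genes exceeded 16.3% and 16.4% of genes, since more genes near 0 then enter. In all, 176 of the recomputed values stayed within these limits and 9 did not. The 176 include the means and ratios with 1 liver left out, which could not do otherwise. No paired analysis was possible because the values reported come from 1 group and from no test. Reads limit the value of *Cyp7b1* most, and 5 livers limit every SD.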
